A study of Mus musculus with 8 samples.

Results

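The comparison described here sets mCre against WT within TN cells, a subset of mouse CD8+ T cells. It takes the 4 libraries that the labels name mCre-TN and WT-TN, 2 for each genotype, out of 8 libraries in all; the other 4 are MP cells of the same genotypes. Every gene with enough counts for a test was included, which was 12313 of the 29426 genes in the count table. CD8+ cells were enriched from spleen with magnetic beads and sorted by CD8, CD4, CD44, CD122 and a viability dye, and their RNA was sequenced as strand-directional libraries. Neither group has a stated treatment, strain or age: the protocol speaks of adult or neonatal spleens without assigning an age to a library. The title of the series ties Cre to the microRNA miR-29, but the labels do not say which allele mCre mice carry, in which cells Cre acts or whether WT mice share any allele with them. Nor do they say whether replicates came from separate animals, so p-values measure the spread between replicate libraries, which may be technical. That spread was estimated over all 8 libraries, those of MP cells included.

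Naive CD8+ T cells circulate between blood and lymphoid organs, steered by receptors such as the sphingosine-1-phosphate receptor, and they stay quiescent until their antigen receptor is engaged. CD8+ cells high in CD44 and CD122 can arise without foreign antigen and respond faster. MicroRNAs of the miR-29 family repress messages that pair with their seed, and in T cells they are known for limiting interferon gamma and its transcription factors. Type I interferon signals through JAK kinases to STAT proteins and IRF9, which bind interferon response elements and raise antiviral genes.

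The sequences that bear on the genotype are the mature miR-29 microRNAs. They are printed 5′ to 3′ from RefSeq (GRCm38.p6), with the seed, bases 2 to 8, in capitals.
miR-29a-3p: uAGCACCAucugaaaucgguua
miR-29b-3p: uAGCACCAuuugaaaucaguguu
miR-29c-3p: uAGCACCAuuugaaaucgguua
All share the seed AGCACCA, whose match in a message reads TGGTGCT. In GRCm38 Mir29a lies on chromosome 6 (31062660 to 31062747, minus strand) and Mir29b-2 on chromosome 1 (195037040 to 195037120, plus strand). Mir29a, Mir29b-2 and Mir29c had 0 counts in each of the 4 TN libraries, which allows up to 0.0936 CPM (counts scaled to the size of the library) in WT-TN and 0.0608 CPM in mCre-TN. At such depth a difference in the precursors could not be detected, and the mature forms are not analysed here. Such limits cover counting error only.

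Total counts were 13479586 and 18585716 in the WT-TN libraries and 30057658 and 19304257 in the mCre-TN libraries, with 14834 to 15722 genes detected. In both groups the replicates were further apart than counting noise alone would put them. The sort genes matched the labelled cell type: Cd8a lay between 1572 and 1735 CPM, Cd4 had at most 4 counts in any TN library, and Cd8a, Cd8b1, Cd44 and Il2rb (the gene of CD122) were not called between genotypes.

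Calls rest on edgeR's quasi-likelihood test at a Benjamini-Hochberg adjusted p, over all genes tested, below 0.05. In TN cells 427 genes were called (3.47%), of which 191 were higher in mCre (1.55%) and 236 were lower (1.92%). This balance turned over with scaling by total counts only, which gave 223 higher and 189 lower, and without mCre-TN replicate 1 (205 and 124) or mCre-TN replicate 2 (116 and 88). At an unadjusted p under 0.05 there were 972 higher and 1118 lower. Most differences were small. The median absolute log2 fold change was 0.45 for the genes called higher and 0.32 for those called lower, and 30 and 40 of them were past 2-fold. All 427 called genes had both mCre libraries on the same side of both WT libraries, an arrangement that 22.3% of all genes tested showed in the upward and 23.5% in the downward direction. The share of genes called rose with level, from 1.28% below 1 CPM to 8.36% above 256 CPM, and the differences called became smaller, with a median absolute log2 fold change of 2.76 in the lowest range and 0.23 in the highest. Above 256 CPM 43 genes were lower and 18 higher. The number of calls rested on single libraries: it was 207 without WT-TN replicate 2 and 204 without mCre-TN replicate 2, while with no filter on low counts it was 783. In all 16 alternatives 96 of the calls were kept, 51 of them higher and 45 lower.

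**Figure D1:**
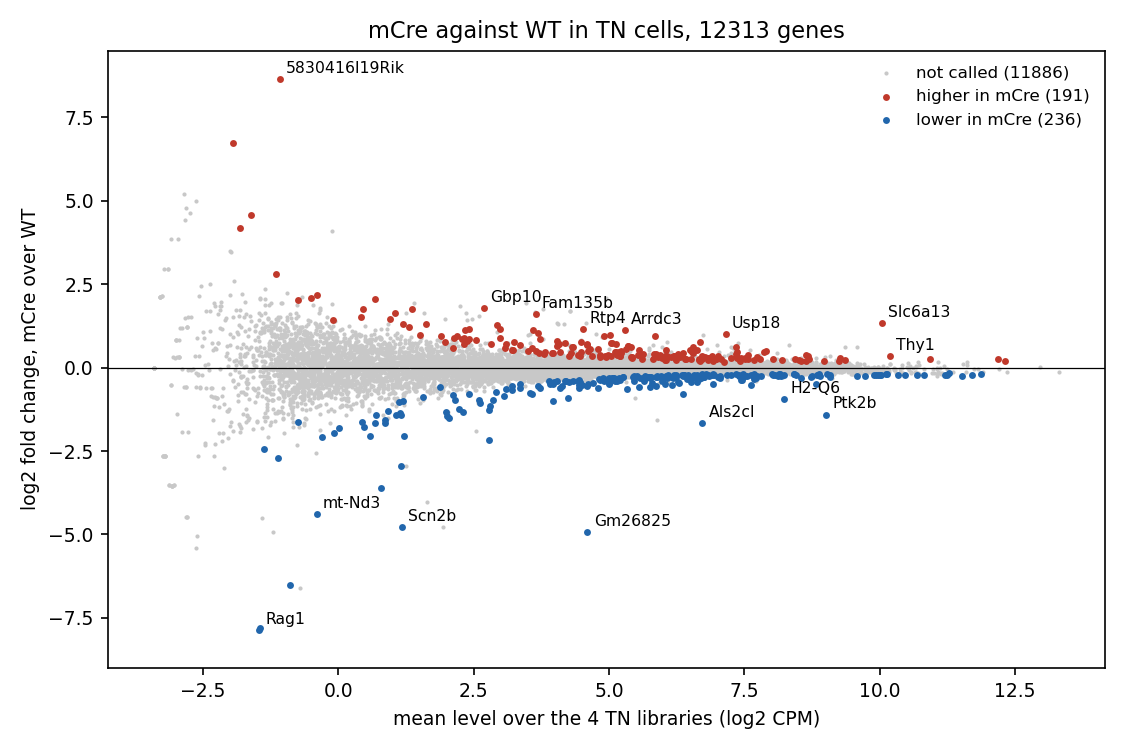
Each point is a gene, with its mean log2 CPM over the 4 TN libraries on the horizontal axis and its log2 fold change, mCre over WT, on the vertical axis. The 191 genes called higher are red and the 236 called lower are blue; most lie within 1 log2 unit of 0, and the few past 4 units include Gm26825, mt-Nd3, Rag1 and 5830416I19Rik.

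Slc6a13, a plasma membrane carrier for GABA, had the clearest increase. Its level was 639 and 684 CPM in the WT-TN libraries and 1719 and 1619 CPM in the mCre-TN libraries. The genotypes were far apart beside the gap between replicates (log2 fold change 1.34, SE 0.0507, adjusted p = 2.35e-12). Its neighbour Slc6a12, a betaine and GABA carrier that lies 5343 bases further along the same strand of chromosome 6, rose as well, from 1.03 and 1.29 to 4.81 and 2.31 CPM (1.63, adjusted p = 0.0128), a call lost without WT-TN replicate 1, WT-TN replicate 2 or mCre-TN replicate 1.

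Arrdc3, an arrestin-domain protein that takes part in receptor trafficking, measured 26.3 and 26.9 CPM in WT-TN against 57.0 and 58.8 CPM in mCre-TN. Both mCre libraries were above both WT libraries by more than the whole WT level (log2 fold change 1.12, SE 0.0689, adjusted p = 6.39e-09). Fam135b, a gene of little known function, went from 6.50 and 7.68 to 19.2 and 24.6 CPM. It had the largest increase among called genes with a mean log2 CPM of at least 3 (1.61, adjusted p = 2.79e-06). Dcaf17, a substrate receptor of a ubiquitin ligase, rose from 20.5 and 25.1 to 46.5 and 45.0 CPM (0.99); Mettl8, which overlaps it on the opposite strand, was not called and lay between 40.2 and 42.0 CPM. The sources used here do not say whether counting used strand, so reads of overlapping genes cannot be told apart; that also holds for Rtp4 (with Masp1), Il12rb2 (with Serbp1) and Aim2 (with Cadm3). Other increases by this rule were those of Agrn (1.05), which encodes the matrix proteoglycan agrin, Clic4 (0.94), a chloride intracellular channel protein, Tcf4 (0.87), an E-protein transcription factor, and Hectd2 (0.77), a ubiquitin ligase. The Clic4 call was lost without either WT-TN library, and that of Tcf4 without WT-TN replicate 2 or mCre-TN replicate 1.

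Ptk2b, the gene of the tyrosine kinase PYK2, which acts downstream of integrins and calcium, had the clearest decrease of a strongly expressed gene. It measured 899 and 792 CPM in WT-TN and 318 and 317 CPM in mCre-TN. The mCre libraries were nearly identical and lay far below WT (log2 fold change −1.41, SE 0.0561, adjusted p = 3.55e-12). Als2cl, which resembles the endosomal exchange factor alsin, went from 202 and 176 to 60.5 and 57.6 CPM (−1.67, adjusted p = 0.000109). Tmie, which overlaps Als2cl on the opposite strand, moved from 4.43 and 4.51 to 0.916 and 1.28 CPM (−2.05), so both values may hold reads of either gene.

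Traf1, an adaptor of TNF receptors, measured 109 and 109 CPM in WT-TN and 65.5 and 60.8 CPM in mCre-TN (log2 fold change −0.79, adjusted p = 1.42e-06). Ntrk3, a neurotrophin receptor, went from 22.7 and 21.5 to 9.88 and 12.2 CPM (−1.01). Acpp, an acid phosphatase, went from 25.6 and 25.9 to 12.5 and 15.4 CPM (−0.90). No mCre library of these 3 genes reached a WT library. Rab20 (−0.84), a vesicle GTPase, Prss12 (−0.76), a serine protease, Fgd6 (−0.66), a guanine nucleotide exchange factor, Igsf8 (−0.65), a partner of tetraspanins, and Unc5cl (−0.62), a death-domain protein, completed the 12 largest decreases of named genes together with H2-Q6 and Cd86, described below. Of these, Acpp, Ntrk3, Traf1 and Unc5cl were called with each single library left out; Rab20 was not called without mCre-TN replicate 1, nor Prss12, Fgd6 and Igsf8 without that library and at least 1 other.

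**Figure D2:**
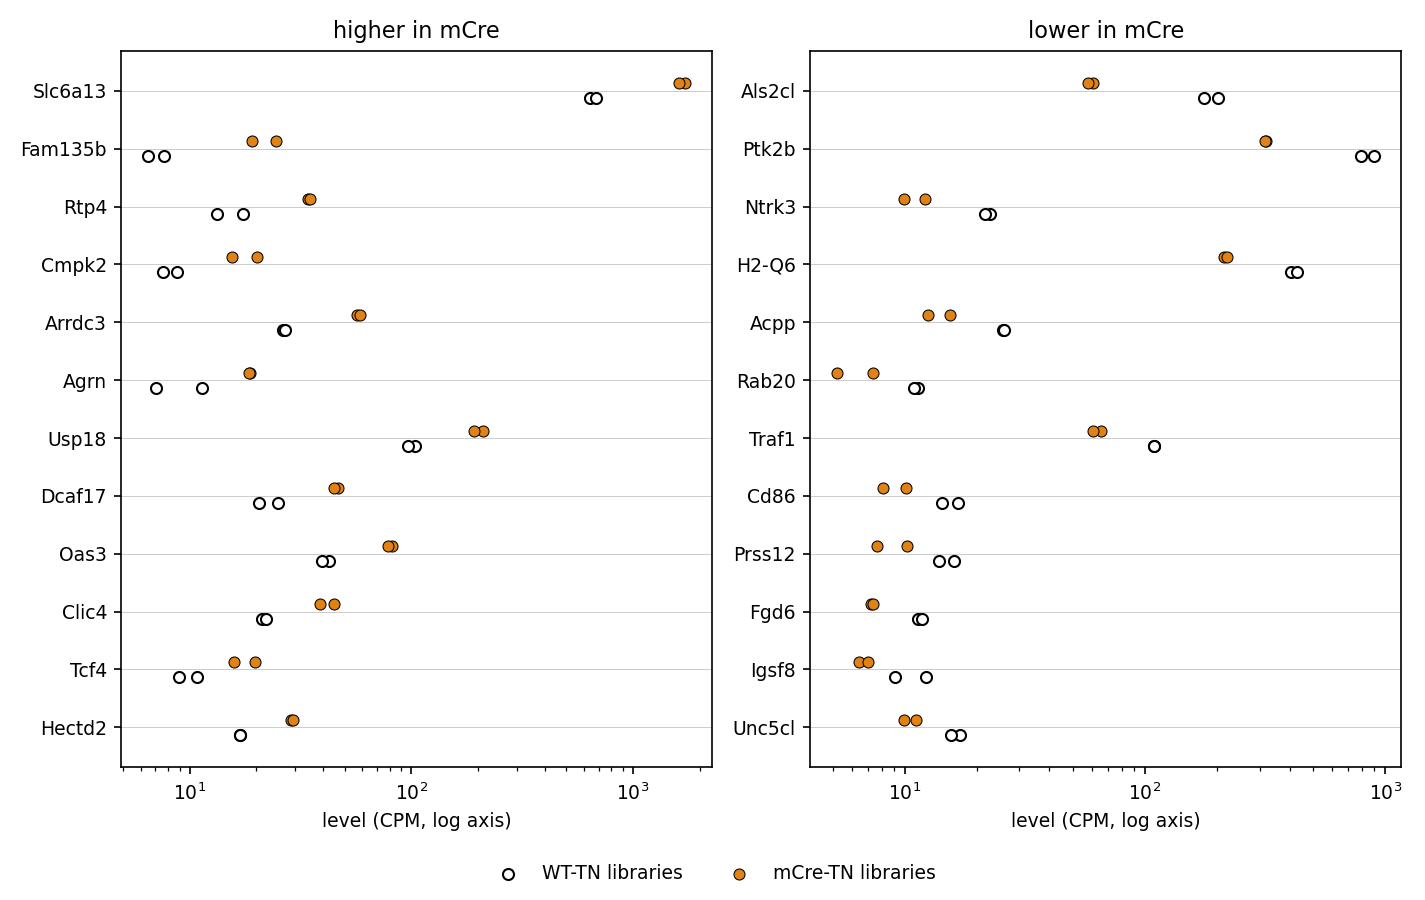
Level in CPM, on a log axis, of the 12 genes with the largest increase (left) and the 12 with the largest decrease (right) among called genes with a mean log2 CPM of at least 3. Open circles are the 2 WT-TN libraries and orange circles the 2 mCre-TN libraries; the genotypes do not overlap for any of these genes, since not overlapping was part of how they were chosen.

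Among genes that took the most counts the called differences were modest. Thy1, a T cell surface glycoprotein, measured 1019.8 and 1046.5 CPM in WT-TN and 1349 and 1281 CPM in mCre-TN (log2 fold change 0.35, adjusted p = 0.000192). Both mCre libraries were above both WT libraries, and the call was kept with any library left out. S1pr1 (0.21), the receptor by which T cells leave lymphoid organs, Ly6e (0.28), Rasa3 (0.23), a GTPase-activating protein, and the nuclear RNA Malat1 (0.26) rose too, each with a call that was lost without 2 of the TN libraries: WT-TN replicate 2 and mCre-TN replicate 1 for S1pr1, Rasa3 and Malat1, and WT-TN replicate 1 and mCre-TN replicate 2 for Ly6e. On the lower side stood ribosomal proteins, the ribosome-bound scaffold Rack1 (−0.17) and the class I gene H2-K1.

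Interferon-stimulated genes were the list with the most called members. Of 73 tested, 23 were higher in mCre-TN and 1 was lower (32.9%, beside 3.47% of all genes), 68 had a positive estimate, and the median log2 fold change was 0.44 beside −0.001 for all genes tested. Both mCre libraries were above both WT libraries for 62 of the 73, beside 22.3% of all genes. Rtp4, a receptor-transporting protein induced by interferon, measured 13.3 and 17.4 CPM in WT-TN and 34.1 and 35.0 CPM in mCre-TN (1.15, adjusted p = 0.000243). Trim30a, a ubiquitin ligase family member, measured 166 CPM in both WT-TN libraries and 210 and 222 CPM in mCre-TN (0.38, adjusted p = 0.000378). Both genes kept their call in each alternative, as did Samd9l (0.35), Ifi27 (0.33) and Eif2ak2 (0.48), the double-stranded RNA-activated kinase PKR.

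Usp18, which removes ISG15 and dampens interferon receptor signalling, measured 104 and 96.9 CPM in WT-TN and 211 and 192 CPM in mCre-TN (log2 fold change 1.01, adjusted p = 0.00804). The mCre libraries were about as far above WT as the WT level itself. Cmpk2 (1.13), a mitochondrial nucleotide kinase, Oas3 (0.96), a synthetase that activates RNase L, Zbp1 (0.77), a sensor of Z-form nucleic acid, Isg20 (0.69), an exonuclease, Xaf1 (0.68), Pml (0.62), the organiser of nuclear bodies, and Ddx58 (0.29), the RNA sensor RIG-I, rose as well. Epsti1 was the member that fell (−0.23, adjusted p = 0.0249). The calls of Usp18, Zbp1, Cmpk2, Oas3, Isg20, Xaf1 and Ddx58 were lost without WT-TN replicate 1 and without at least 1 other TN library, that of Pml without WT-TN replicate 2 and that of Epsti1 without WT-TN replicate 2 or mCre-TN replicate 1.

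Members with larger estimates did not pass the test. Ifit3 measured 6.95 and 8.27 CPM in WT-TN and 31.8 and 18.9 CPM in mCre-TN (log2 fold change 1.75, adjusted p = 0.182). Ly6a measured 10.8 and 20.8 CPM in WT-TN and 38.3 and 104 CPM in mCre-TN (2.09, adjusted p = 0.238). Groups did not overlap for either gene, but replicates of a genotype lay far apart. The number of interferon-stimulated genes called higher moved with the fit: it was 11 without either WT-TN library, 15 without mCre-TN replicate 2, 40 without either mCre-MP library, 39 with the TN libraries alone and 38 with DESeq2.

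The letters of the interferon-stimulated response element, a GAAA block followed after 2 bases by another (TTTC blocks on the other strand), were searched for on both strands of promoter windows, 250 bases before to 50 after each start, from RefSeq (GRCm38.p6). They were present in 14 of the 133 genes called higher that had a window (10.5%), in 5 of 174 called lower (2.87%) and in 362 of all 9513 (3.81%); over windows rather than genes the share was 3.15% of 12085. Interferon-stimulated genes called higher held them in 7 of 17 cases (41.2%) and those not called in 18 of 37 (48.6%), while genes called higher outside the interferon lists held them in 4 of 113 (3.54%). The match is a description of letters, not a measured site. The stretches upstream of 5 interferon-stimulated genes that rose are shown with the match in capitals, each read on the strand of its gene.
Oas3: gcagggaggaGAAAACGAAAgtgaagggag
Phf11b: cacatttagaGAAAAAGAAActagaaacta
Trim30a: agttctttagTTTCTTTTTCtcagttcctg
Trim12c: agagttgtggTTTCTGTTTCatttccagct
Stat2: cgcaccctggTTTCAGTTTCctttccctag
They lie at chr5:120777715-120777744 (minus strand), chr14:59341361-59341390 (minus), chr7:104465210-104465239 (minus), chr7:104353359-104353388 (minus) and chr10:128270266-128270295 (plus), and the matches end 65, 40, 26, 19 and 212 bases before the start.

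The interferon-inducible GTPases, which attack the membranes around intracellular microbes, had a positive estimate for all 16 tested, with a median of 0.60. Only Gbp10 (1.79) and Gbp9 (0.49) were called (12.5%, beside 3.47% of all genes), and reads of these near-identical genes may have been shared among them. Summed over the list, the level was 1224 and 1511 CPM in WT-TN and 1563 and 2622 CPM in mCre-TN. Replicate 2 was above replicate 1 for all 16 genes in WT-TN and for all 16 in mCre-TN, so the higher WT library stood close to the lower mCre library. Without mCre-TN replicate 1, 14 were called higher, and without WT-TN replicate 1 none was.

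Of 10 Ifi200 family DNA sensors, which also share similar sequences, 3 rose and 1 fell (40%, beside 3.47% of all genes). Those that rose were Ifi206 (0.41), Ifi213 (0.60) and Ifi214 (0.36). Aim2, which assembles an inflammasome on cytosolic DNA, fell from 66.8 and 66.5 to 47.8 and 40.2 CPM (−0.59, adjusted p = 0.00114), and lies next to Ifi206. Only Ifi206 kept its increase without WT-TN replicate 1, WT-TN replicate 2 or mCre-TN replicate 2. Among 33 interferon receptor and JAK-STAT genes 2 rose and 1 fell (9.09%, beside 3.47% of all genes). Stat2 (0.33) and Irf9 (0.31), members of the interferon-activated transcription complex, rose. Ifngr1 (−0.31), a chain of the interferon gamma receptor, fell from 192 and 197 to 151 and 164 CPM. Without mCre-TN replicate 2 neither increase was called, nor was that of Stat2 without WT-TN replicate 2 or of Irf9 without WT-TN replicate 1, and without mCre-TN replicate 1 the decrease of Ifngr1 was not. Without mCre-TN replicate 1, 8 of the 33 were called higher, and without mCre-TN replicate 2 none was.

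**Figure D3:**
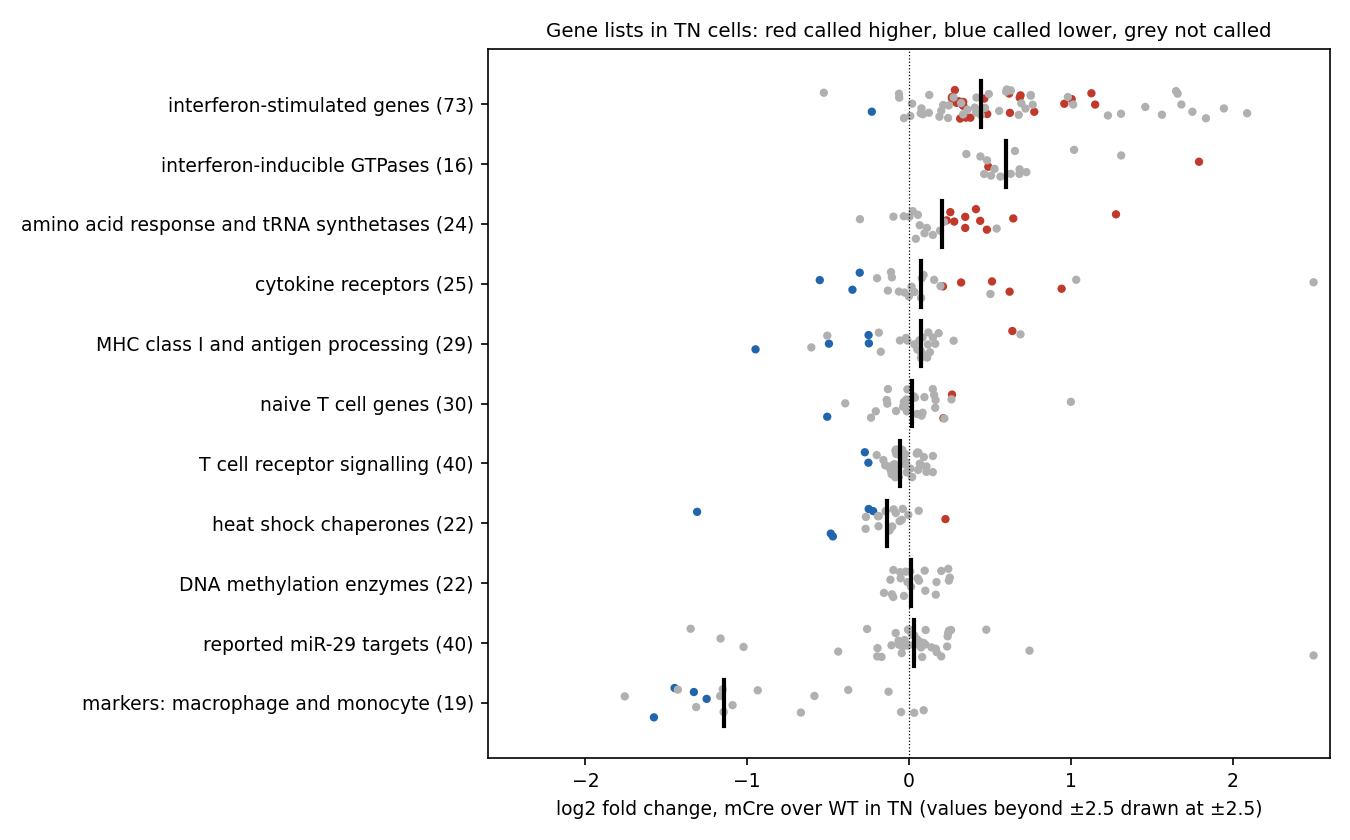
Log2 fold change in TN, mCre over WT, of the tested members of 11 gene lists, with the number tested in parentheses. Red members were called higher, blue lower and grey not called; the black bar is the list median, which lies at 0.44 for interferon-stimulated genes, 0.20 for amino acid response genes and −1.15 for macrophage markers, and 2 members beyond 2.5 are drawn at the edge.

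Amino acid response genes and tRNA synthetases, which share activation by ATF4 when amino acids run short, were often higher. Of 24 tested, 10 were higher and 0 lower (41.7%, beside 3.47% of all genes), 21 had a positive estimate and the median was 0.20. Asns, which makes asparagine, measured 3.99 and 5.64 CPM in WT-TN and 11.1 and 12.9 CPM in mCre-TN (log2 fold change 1.28, SE 0.165, adjusted p = 0.000152). Cars, the cysteine tRNA synthetase, measured 32.4 CPM in both WT-TN libraries and 47.8 and 53.8 CPM in mCre-TN (0.64, adjusted p = 9.37e-05). The mCre libraries were above WT in both genes.

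The synthetases Wars (0.48), Mars (0.44), Aars (0.41), Iars (0.28) and Lars (0.25), the proline and serine synthesis genes Aldh18a1 (0.35) and Psat1 (0.35), and Ddit4 (0.23), an inhibitor of mTORC1, made up the rest. Wars is also known to be induced by interferon. Mars overlaps Ddit3 on the opposite strand. Atf4 itself measured between 196 and 208 CPM in the 4 libraries, with overlapping groups (0.04, adjusted p = 0.727). Asns, Cars, Wars, Mars, Aars and Aldh18a1 kept their call in each alternative; without mCre-TN replicate 2 the count was 6.

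Of 24 GABA and amino acid transporters 4 rose and 2 fell (25%, beside 3.47% of all genes). Besides Slc6a13 and Slc6a12, the large neutral amino acid carrier Slc7a5 rose from 58.5 and 52.1 to 72.7 and 85.5 CPM (log2 fold change 0.52, adjusted p = 0.000751). The arginine and lysine carrier Slc7a1 rose from 93.7 and 92.4 to 114 and 125 CPM (0.36, adjusted p = 0.00143). Slc38a2 (−0.24), which imports neutral amino acids, and Slc6a19 (−2.06, from 3.77 and 2.15 to 0.753 and 0.616 CPM) fell. Slc7a5 and Slc7a1 kept their calls in each alternative, whereas both decreases were lost without WT-TN replicate 1 and without mCre-TN replicate 2.

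Cytokine receptors moved both ways, with 5 higher and 3 lower of 25 (32%, beside 3.47% of all genes). Il12rb1, a chain of the interleukin-12 and interleukin-23 receptors, measured 15.7 and 16.8 CPM in WT-TN and 22.4 and 28.2 CPM in mCre-TN (log2 fold change 0.62, adjusted p = 0.00208). Its partner chain Il12rb2 went from 3.4 and 2.04 to 5.53 and 4.57 CPM (0.94, adjusted p = 0.0242). Both chains were higher in both mCre libraries. Il15ra (0.51), Il10ra (0.32) and Il27ra (0.21) also rose, and Il4ra fell from 233 and 227 to 169 and 193 CPM (−0.35, adjusted p = 0.00261; not called without mCre-TN replicate 1), as did Ifngr1 and the TGF-beta co-receptor Tgfbr3 (−0.55). Without WT-TN replicate 2 only 1 of the 5 increases was called, without mCre-TN replicate 2 there were 2, and DESeq2 and limma-voom each called 3.

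Naive T cell genes and memory-phenotype markers showed no common direction. Of 30 naive genes 2 rose and 1 fell (10%, beside 3.47% of all genes), with a list median of 0.02. S1pr1 was among those that rose, and Tdrp, a little studied gene, fell (−0.51, from 221 and 248 to 173 and 157 CPM, adjusted p = 7.99e-05). Of 32 memory-phenotype markers, S100a6 (0.95), S100a4 (1.44) and Runx3 (0.29) rose and Cxcr3 (−0.49) fell (12.5%, beside 3.47% of all genes), with a median of −0.02. S100a6, a calcium-binding protein, measured 3.25 and 3.22 CPM in WT-TN and 6.71 and 5.65 CPM in mCre-TN (adjusted p = 0.000284). Its libraries did not overlap, and its call was kept in each alternative, unlike that of its neighbour S100a4. Of 36 cytotoxic effector and NK-type receptor genes only the granzyme inhibitor Serpinb6b was called (2.78%, beside 3.47% of all genes). Its estimate was −0.39 (adjusted p = 0.0415), and the call was lost in 11 of 16 alternatives, including without each of the TN libraries.

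T cell transcription factors gave 3 calls out of 50 tested (6%, beside 3.47% of all genes). Ikzf2, the Ikaros family factor Helios, measured 23.4 and 22.5 CPM in WT-TN and 34.8 and 32.8 CPM in mCre-TN (log2 fold change 0.57, adjusted p = 0.00153). Hopx, a homeodomain-only protein of effector and memory cells, measured 26.5 and 25.6 CPM in WT-TN and 17.6 and 18.6 CPM in mCre-TN (−0.53, adjusted p = 0.000187). These 2 genes kept their calls in each alternative. Runx3, which sustains CD8 identity, rose from 153 and 146 to 177 and 190 CPM (0.29, adjusted p = 0.00355), a call lost without WT-TN replicate 2 or mCre-TN replicate 2.

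Of 27 chemokine receptors and homing genes 3 rose and 2 fell (18.5%, beside 3.47% of all genes). Ccr4 rose from 3.25 and 3.49 to 8.35 and 6.47 CPM (1.14, adjusted p = 0.00942), as did S1pr1 and 1 other member. The laminin-binding integrin chain Itga6 fell from 101 and 102 to 80.5 and 80.3 CPM (−0.34, adjusted p = 0.000763). Cxcr3, the receptor for interferon-induced chemokines, fell from 19.4 and 17.7 to 13.3 and 12.9 CPM (−0.49, adjusted p = 0.0299), a call lost without each of the 4 TN libraries in turn. Ccr4 was not called without WT-TN replicate 1, WT-TN replicate 2 or mCre-TN replicate 1.

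Of 40 genes of T cell receptor signalling the adaptor Bcl10 (−0.25) and the kinase Tec (−0.27) fell (5%, beside 3.47% of all genes), and DESeq2 called neither. In this list 19 genes had both mCre libraries below both WT libraries, beside 23.5% of all genes, and the median was −0.06. At an unadjusted p under 0.05, 8 were lower and 1 higher, beside 1118 lower and 972 higher of all 12313 genes. Of 30 focal adhesion kinase genes, Itgb3 (0.34), an integrin chain, rose and Ptk2b fell (6.67%, beside 3.47% of all genes). Of 39 NF-kappaB and TNF receptor family genes, Traf1 and Ltb (−0.22), which encodes lymphotoxin beta, fell (5.13%, beside 3.47% of all genes). The call of Ltb was lost without replicate 2 of either genotype and that of Itgb3 without WT-TN replicate 1. Of 28 costimulatory and co-inhibitory receptors and ligands 1 was called (3.57%, close to the 3.47% of all genes). That gene, Cd86, a ligand of CD28, fell from 14.3 and 16.6 to 8.08 and 10.1 CPM (−0.79, adjusted p = 0.00318). Its libraries did not overlap, but the call was lost without WT-TN replicate 2 or mCre-TN replicate 1. Macrophages also express Cd86, and the summed level of 20 macrophage and monocyte markers was also lower, at 89.0 and 66.6 CPM in WT-TN and 52.2 and 46.4 CPM in mCre-TN; their part in the result was not tested. Of 25 TGF-beta receptor and Smad genes, Tgfbr3 and the Smad co-repressor Skil (−0.21) fell (8%, beside 3.47% of all genes). Both lost their call without WT-TN replicate 1 and without WT-TN replicate 2. Of 38 immediate-early genes, Arrdc3 rose and Ier5 (−0.25) fell (5.26%, beside 3.47% of all genes). Ier5 was not called without WT-TN replicate 1 or either mCre-TN library.

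Of 29 class I and antigen-processing genes, 4 fell and 1 rose (17.2%, beside 3.47% of all genes). H2-Q6 measured 404 and 431 CPM in WT-TN and 214 and 219 CPM in mCre-TN (log2 fold change −0.95, SE 0.0675, adjusted p = 8.08e-07). H2-Q7, its neighbour on chromosome 17, measured 524 and 553 CPM in WT-TN and 369 and 395 CPM in mCre-TN (−0.50, adjusted p = 4e-05). Both genes were clearly lower in both mCre libraries. The Q genes encode nonclassical class I molecules, among them the Qa-2 antigen.

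H2-Q4, also in that cluster, fell by 0.25, and the classical gene H2-K1, which presents peptides to CD8+ T cells, fell from 3069 and 3318 to 2636 and 2741 CPM (−0.25, adjusted p = 0.00827). H2-T24, of the T region, rose from 33.8 and 31.4 to 51.0 and 50.3 CPM (0.64, adjusted p = 0.000418). These genes are close paralogs whose reads may have been shared or lost depending on their exact sequence, so each value is uncertain. The calls of H2-Q6, H2-Q7 and H2-T24 were kept in each alternative, and those of H2-Q4 and H2-K1 were lost without WT-TN replicate 2 or mCre-TN replicate 1. The list median was 0.07. Neither edgeR nor DESeq2 called any of 12 class II genes, whose median was −0.27. Before adjustment 0 were higher and 1 lower, beside 972 higher and 1118 lower of all 12313 genes. Class II is known from macrophages and B cells.

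Of 22 heat shock chaperones tested 5 fell and 1 rose (27.3%, beside 3.47% of all genes), 2 had a positive estimate, and the median was −0.13. Dnajb1, a co-chaperone of HSP70, measured 143 and 142 CPM in WT-TN and 103 and 101 CPM in mCre-TN (log2 fold change −0.48, adjusted p = 4e-05). Hsph1, a nucleotide exchange factor, measured 97.9 and 87.2 CPM in WT-TN and 63.3 and 70.3 CPM in mCre-TN (−0.47, adjusted p = 0.00801). No mCre library reached a WT library in these genes. Fkbp4 (−0.25) and Stip1 (−0.22), co-chaperones of HSP90, and the inducible Hspa1b (−1.31), which has a near-identical copy, fell too, while Fkbp5 (0.22), known as a glucocorticoid target, rose. Of these decreases only that of Dnajb1 was called without WT-TN replicate 1, and only those of Dnajb1 and Hsph1 without mCre-TN replicate 1.

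Of 25 endoplasmic reticulum stress genes only 1 was called (4%, beside 3.47% of all genes). Atf6, a sensor of misfolded proteins, rose from 27.3 and 23.8 to 41.2 and 44.1 CPM (0.74, adjusted p = 3.16e-05), also with any library left out. Pmaip1, the pro-apoptotic gene of NOXA, rose from 19.2 and 21.6 to 30.5 and 30.2 CPM (0.56, adjusted p = 0.000615). It was the only call among 24 apoptosis regulators (4.17%). Of 27 glycolysis genes 15 had both mCre libraries below both WT libraries, beside 23.5% of all genes, and 1 was called (3.7%, close to the 3.47% of all genes): Slc2a3, a glucose transporter, fell from 67.0 and 62.1 to 48.1 and 46.3 CPM (−0.45, adjusted p = 0.00027). Of 44 cell cycle genes Cdt1 (−0.30) and Cdc25b (−0.25) fell (4.55%, beside 3.47% of all genes). Of 8 Gimap GTPases, which support lymphocyte survival, Gimap7 fell (−0.57) and Gimap5 rose (0.43), which is 25% of the list. The calls of Cdt1, Cdc25b and Gimap5 were lost without WT-TN replicate 2 and without either mCre-TN library, and that of Gimap7 without either WT-TN library. None of 34 cholesterol and fatty acid synthesis genes was called by edgeR or DESeq2. At an unadjusted p under 0.05, 2 were higher and 1 lower, beside 972 higher and 1118 lower of all 12313 genes.

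Ribosomal protein genes, a list added after their values were seen, were slightly lower in mCre-TN. Of 77 tested, 21 fell and 0 rose (27.3%, beside 3.47% of all genes and 8.36% of all genes above 256 CPM). Of the 77, 75 had a negative estimate. The median was −0.15, or −0.14 when libraries were scaled by total counts only. They took 8.07% and 8.78% of counts in the WT-TN libraries and 7.69% and 7.49% in the mCre-TN libraries. Rpl4 measured 3847 and 4151 CPM in WT-TN and 3549 and 3505 CPM in mCre-TN (−0.18, adjusted p = 0.0396). This count rested on single libraries: it was 0 without WT-TN replicate 2, 1 without mCre-TN replicate 2, 4 without mCre-TN replicate 1 and 46 without WT-TN replicate 1.

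Of 8 mitochondrially encoded genes 1 rose and 1 fell (25%, beside 3.47% of all genes). mt-Cytb, a subunit of complex III, rose by 0.19 (4702 and 4891 to 5412 and 5499 CPM, adjusted p = 0.0256). This call was lost without either mCre-TN library or WT-TN replicate 1. mt-Nd3, a subunit of complex I, measured 2.88 and 2.42 CPM in WT-TN and 0.131 and 0.103 CPM in mCre-TN (−4.39, adjusted p = 3.22e-05). Its level was low in WT-TN too, beside 4702 and 4891 CPM for mt-Cytb, and its counts were near 0 in both mCre libraries. The call was kept in each alternative.

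Some genes had counts in 1 genotype and almost none in the other; they were chosen after their values were seen. Gm26825, an unnamed transcript on chromosome 5 (5781530 to 5783636), measured 129 and 135 CPM in WT-TN and 3.89 and 4.93 CPM in mCre-TN (log2 fold change −4.93, SE 0.0835, adjusted p = 1.73e-18), the smallest p of the comparison. Scn2b, a sodium channel subunit on chromosome 9, measured 13.1 and 11.2 CPM in WT-TN and 0.622 and 0.154 CPM in mCre-TN (−4.78, adjusted p = 0.000131). Both were lower in the mCre-MP libraries too (−4.71 and −5.76).

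Rag1, the recombinase of developing lymphocytes, had 27 and 16 counts in the WT-TN libraries and 0 in both mCre-TN libraries. With 3 counts over the group taken as the limit for 0, its pooled level was 22.1-fold lower. Ratios to this limit leave out the counting error of the other genotype. B230118H07Rik, which overlaps Rag1, was lower as well (−1.79). Agtr1a, an angiotensin receptor gene, had 20 and 22 counts against 0 and 0, which was 21.6-fold lower by the same limit. In the other direction 5830416I19Rik had 0 and 0 counts against 51 and 61, which was 24.3-fold higher by that limit. Fap, a fibroblast protease, had 0 and 1 against 33 and 12, a ratio of 29.2 with an exact 95% counting interval of 4.99 to 1180. Groups did not overlap in any of these genes, but each rests on few counts.

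The called genes were spread over the genome. Among the autosomes and X the share called lay between 2.36% on X and 5.64% on chromosome 6, where 12 genes were higher and 21 lower of 585. Protein-coding genes were called in 407 of 11740 cases (3.47%) and long non-coding ones in 19 of 519 (3.66%). There were 40 pairs of called genes with no tested gene between them, and 29 of these pairs moved in the same direction. They included Slc6a13 with Slc6a12, H2-Q4 with H2-Q6 and H2-Q7, S100a4 with S100a6, Malat1 with Neat1, Als2cl with Tmie and Pml with Stoml1. How many such pairs would arise without regard to position was not worked out, so these counts are a description only. Some pairs overlap, among them Als2cl with Tmie and Gcc1 with Arf5, and may share reads. Within 5 Mb of Mir29a, a window chosen after values were seen, 4 of 46 tested genes were called (8.7%), all lower: Gcc1 (−0.41) with the overlapping Arf5 (−0.23), Smo (−1.42) and Ahcyl2 (−0.40). Within 5 Mb of Mir29b-2 and Mir29c, 2 of 31 were called (6.45%), both lower, among them Traf3ip3 (−0.21).

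The question that the title raises, how far miR-29 targets differ, can be put to the messages. Of 40 tested genes reported elsewhere as miR-29 targets, 0 were called by edgeR, DESeq2 called 1 lower, and the median log2 fold change was 0.03. At an unadjusted p under 0.05, 6 were higher and 4 lower. Of all 12313 genes tested, 972 were higher and 1118 lower at that level, the background for each list in this paragraph. Of 22 DNA methylation enzymes, among them known miR-29 targets, 0 were called by edgeR or DESeq2 (5 higher and 1 lower at an unadjusted p under 0.05; median 0.01). Tet2, a methylcytosine dioxygenase, measured 77.9 and 68.6 CPM in WT-TN and 81.7 and 92.0 CPM in mCre-TN (0.25, adjusted p = 0.0507). Dnmt3a, a de novo methyltransferase, measured 122 and 112 CPM in WT-TN and 135 and 126 CPM in mCre-TN (0.17, adjusted p = 0.146). Both genes had the mCre libraries above WT without passing the test. Of 15 microRNA processing genes 0 were called by edgeR or DESeq2, with 3 higher and 0 lower at an unadjusted p under 0.05.

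The letters TGGTGCT were then counted in the longest annotated 3′ UTR of each gene. They were present in 1796 of 11641 genes. Of the genes that hold them 38 were higher (2.12%) and 29 lower (1.61%), with a median log2 fold change of 0.008; of those without them 139 were higher (1.41%) and 197 lower (2%), with a median of −0.006. Turned around, the match was in 21.5% of the genes called higher, in 12.8% of those called lower and in 15.4% of those not called. UTR length moved with this: its median was 1476 bases for genes called higher, 1079 for genes called lower and 1147 for the rest, and its part in the result was not tested. Genes with 2 or more matches numbered 270, with 7 higher and 4 lower and a median of 0.03.

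Matches in 4 of the called genes described above are shown as examples, with the letters in capitals and 10 bases on either side. The first 3 genes rose and Slc2a3 fell. Other genes described above also hold the match, among them Clic4 and Agrn, which rose, and Ntrk3 and Slc38a2, which fell.
Arrdc3: aacgctggccTGGTGCTtgacctggtt
Slc7a5: cagggattcaTGGTGCTgacccaggct
Slc7a1: ttatgtagatTGGTGCTgtaaaatatt
Slc2a3: aaagaaagttTGGTGCTggagagaggt
Arrdc3 holds 2 such matches, the first starting 1765 bases into a UTR of 2616 bases. A match to the seed is not a measured target site.

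The same contrast in MP cells gave 498 calls (4.04%), 256 higher (2.08%) and 242 lower (1.97%). Its group means come from the 4 MP libraries alone. Both contrasts are from the same fit, however, and share its filter, scaling and estimate of spread, so their calls are not independent. Libraries of TN and MP cells with the same genotype and number deviated together (r = 0.21 for WT and 0.224 for mCre over 8661 genes, which are not independent replicates), so the contrasts may not come from separate animals. Of the 427 TN genes, 178 were called in the same direction in MP, which is 41.69% of the TN calls and 35.74% of the MP calls: 97 were higher in both and 81 lower in both. Slc6a13 (MP log2 fold change 1.16), Arrdc3 (1.08), Rtp4 (1.11), Asns (1.07), Ptk2b (−1.22), Dnajb1 (−0.42) and mt-Nd3 (−4.30) were among them. Of 73 interferon-stimulated genes 36 were called higher in MP, with a median of 0.47, and of 24 amino acid response genes 9, beside 2.08% of all genes. Another 245 TN genes were not called in MP, where 217 had an estimate of the same sign. The share of all genes tested with the same sign in both contrasts was not worked out.

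The test of the difference between the contrasts called 16 genes (0.13%), 12 of which were called in TN. Opposite calls were made for 4 genes: Ikzf2 (0.57 in TN and −0.79 in MP, adjusted p of the difference 3.74e-05), S100a6 (0.95 and −0.21, 0.00047), Cd86 (−0.79 and 0.86, 0.00047) and Il12rb2 (0.94 and −0.69, 0.0252). H2-Q6 (−0.95 and 0.14, 3.74e-05), H2-Q7 (−0.50 and 0.09, 0.0011), Traf1 (−0.79 and −0.08, 0.000992) and Hopx (−0.53 and −0.04, 0.0252) fell in TN and were not called in MP. Hectd2 (0.77 and −0.25, 0.000992), Edaradd (1.16 and −0.28, 0.02), which encodes an adaptor of the ectodysplasin receptor, and Atf6 (0.74 and 0.15, 0.03) rose in TN and were not called in MP, while Fam135b rose in both, less in MP (1.61 and 0.53, 0.0473). Other genes called in TN alone were not shown to differ from MP.

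**Figure D4:**
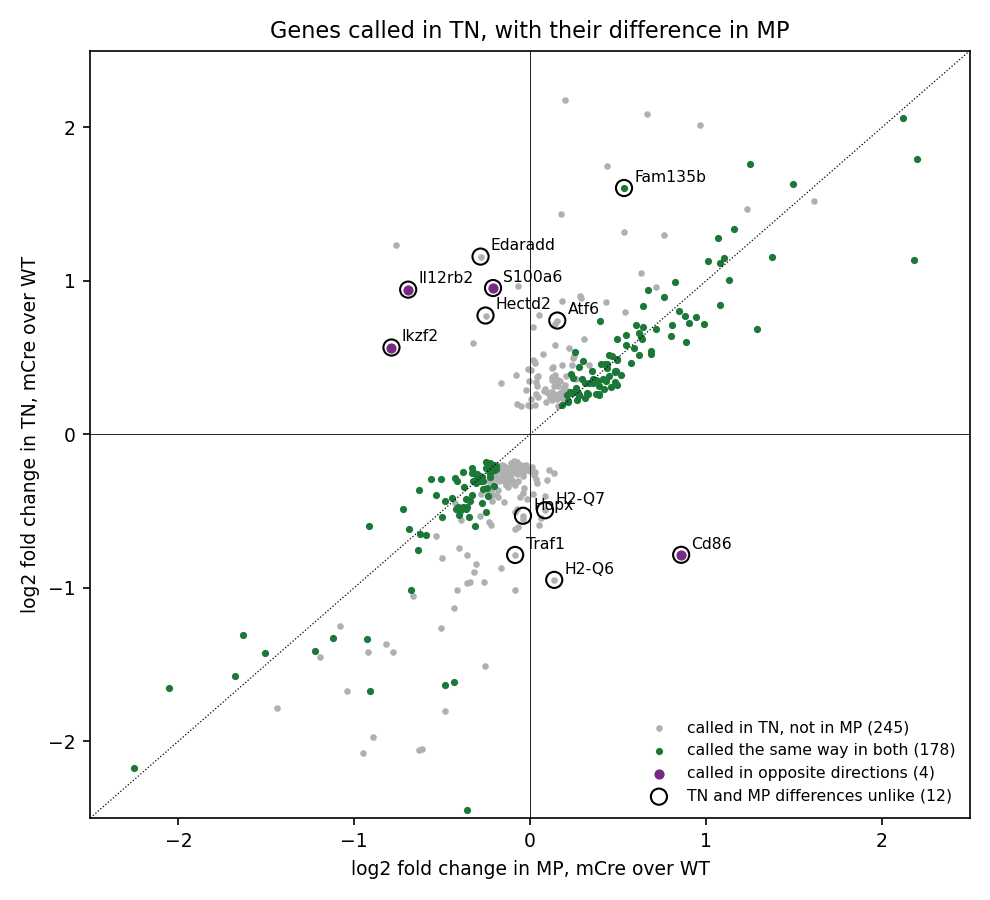
Log2 fold change, mCre over WT, in MP (horizontal) and TN (vertical) of the genes called in TN; 14 genes lie outside the plotted range. Green genes were called the same way in both subsets (178), grey ones in TN alone (245) and purple ones in opposite directions (4), and circled genes are the 12 whose TN and MP differences were unlike by the test; the dotted line marks equal differences.

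Markers of other cell types were checked, since a sort leaves some other cells. The sum of the macrophage markers given above did not overlap between genotypes. Of the 19 markers tested 4 were called lower and 0 higher (21.1%, beside 3.47% of all genes), 2 had a positive estimate, and the median was −1.15. Hmox1 (−1.33), which degrades heme, C1qa (−1.58), a complement subunit, Csf1r (−1.45), the macrophage growth factor receptor, and Vcam1 (−1.25) were called lower; 0 of the markers were without counts in all TN libraries. Hmox1 was called in each alternative, and the other calls were lost without at least 3 of the TN libraries in turn. In bulk samples fewer cells of a type and less RNA per cell cannot be told apart. The part of such cells in the differences above was not tested.

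Gamma-delta T cell markers summed to 13.4 and 11.1 CPM in WT-TN and to 28.5 and 36.3 CPM in mCre-TN, mostly through Cd163l1, which measured 7.32 and 4.24 CPM against 17.8 and 25.4 CPM (log2 fold change 1.93, adjusted p = 0.0652). Cd163l1 was abundant in the MP libraries, at 840 to 1191 CPM, so here it does not mark gamma-delta cells alone. It was not called by edgeR, although DESeq2 and limma-voom each called 1 marker of this list. Erythroid and platelet markers summed to 31.3 and 32.4 CPM in WT-TN and 35.3 and 69.7 CPM in mCre-TN, with mCre-TN replicate 2 apart from the rest. B cell markers summed to 18.1 to 22.9 CPM and neutrophil markers to 0.813 to 1.34 CPM, with no separation of the genotypes. CD4 and regulatory T cell markers summed to 111 and 106 CPM in WT-TN and 127 and 113 CPM in mCre-TN. Of 9 tested, Ikzf2 was the member called (11.1%, beside 3.47% of all genes). Both mCre libraries were above both WT libraries for 4 of the 9 and below them for 2, beside 22.3% and 23.5% of all genes. NK and innate lymphoid markers summed to 439 and 421 CPM in WT-TN and 410 and 420 CPM in mCre-TN, mostly through Nkg7 (327 to 341 CPM). Of this list Ncr1, Klrb1c, Klra8 and Klra9 had 0 counts in all TN libraries. Others had counts in each of them, such as Tyrobp (16 to 47) and Fcer1g (7 to 22). CD8 T cell genes summed to 6172 and 6234 CPM in WT-TN and 6201 and 5864 CPM in mCre-TN.

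**Figure D5:**
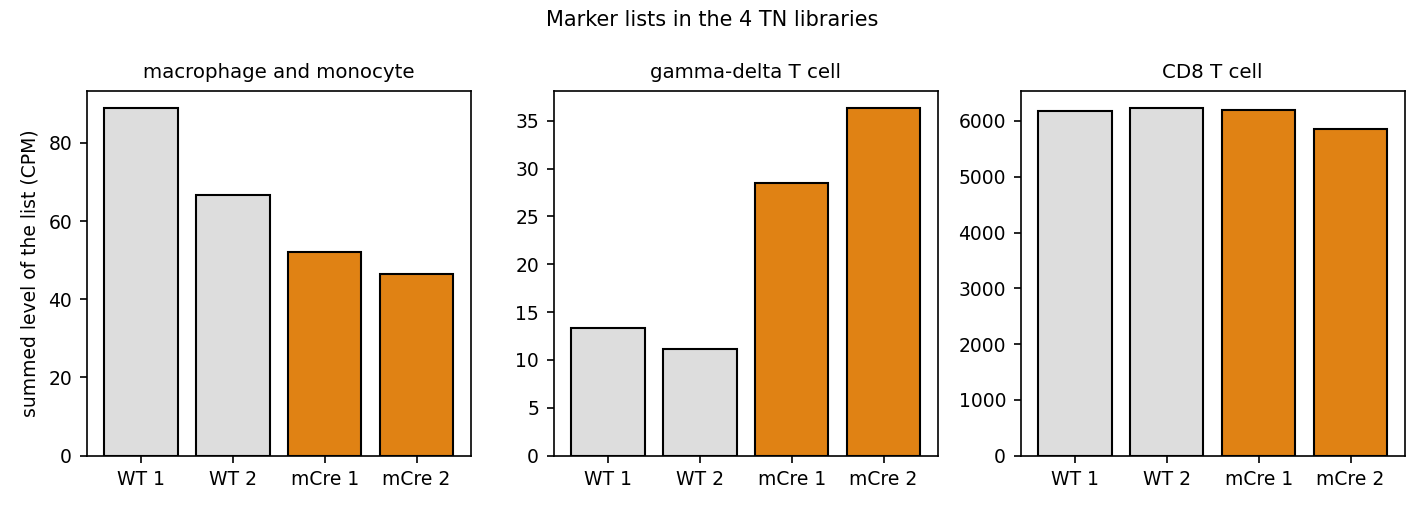
Summed CPM of 3 marker lists in each of the 4 TN libraries, with WT libraries in grey and mCre libraries in orange; each panel has its own axis from 0. Macrophage markers are lower and the gamma-delta list, whose main gene Cd163l1 is also abundant in MP cells, is higher in both mCre libraries, while the CD8 T cell genes differ little, from 5864 to 6234 CPM.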

How the data were processed

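RNA of sorted spleen CD8+ T cells was sequenced. The authors deposited raw counts for each gene and library. The submitters' processing notes name featureCounts, HISAT2, Trim Galore and the mm10 build; the sources used here give neither versions nor the strand setting. Counts of all 8 libraries were fitted with a mean per group in edgeR 4.0.16 (R 4.3.3; TMM scaling, filterByExpr, robust quasi-likelihood F test, two-sided). CPM values use the TMM-scaled library sizes. Alternatives were DESeq2 1.42.0, limma-voom (limma 3.58.1), other scaling and filters, a replicate block, the TN libraries alone, and each library left out. Sequences were searched in Python 3.11.15, with positions from GENCODE M21 and promoter windows for 9513 of 12313 tested genes.

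The members and lists were chosen with earlier results of these data known. Genes named are the 12 with the largest change and the 8 with the most counts per direction among called genes whose libraries do not overlap (the former with a mean log2 CPM of at least 3), up to 6 called members per list, sort markers, miR-29 precursors and up to 5 genes per direction by the test of TN against MP; unnamed transcripts were not eligible. Other genes were chosen after their values were seen. Deviations of WT-TN and mCre-TN libraries with the same number had r = 0.0118 over genes, so numbers were not taken to pair the genotypes. Counts were also simulated with the spread that the fit itself estimated, and known changes were put into genes with a mean above 4 CPM. The test found 83.3% of genes changed by 0.5 on the log2 scale and 98.5% of those changed by 1. In a fit of 12095 genes it made 17 false calls, beside 55, 66 and 66 true ones among genes changed by 0.5, 1 and 2 on the log2 scale. These shares do not cover genes with fewer counts, or variation between libraries beyond the simulated spread. Some genes that these rules name are not reported here.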

Additional observations from a re-analysis of the deposited data

Results flagged for a closer look

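The difference between mCre and WT was unlike in TN and MP cells for 16 genes by the test of that difference in edgeR, adjusted over all genes tested. In TN cells the estimate was the higher one for Ikzf2 (adjusted p = 3.74e-05), S100a6 (0.00047), Hectd2 (0.000992), Edaradd (0.02), Itm2a (0.0252), Il12rb2 (0.0252), Atf6 (0.03), Anxa2 (0.03), Clec2i (0.0448) and Fam135b (0.0473). It was the lower one for H2-Q6 (3.74e-05), Cd86 (0.00047), Traf1 (0.000992), H2-Q7 (0.0011), Hopx (0.0252) and Gpr55 (0.03). Ikzf2, H2-Q6, Cd86, Hectd2, Traf1 and H2-Q7 kept this call in all 15 alternatives that gave a value, and S100a6 lost it with limma-voom alone (adjusted p = 0.0633). The other 9 lost it in between 5 and 8 of the 15, leaving out single libraries among them.

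Of the 4 genes not called in TN, Anxa2, a membrane-binding annexin, was −0.07 in TN and −0.74 in MP, and Itm2a was 0.21 and −0.46. Clec2i, a ligand of an NK receptor, was 0.12 and −0.36. Gpr55, a lipid receptor, was −1.19 in TN (adjusted p = 0.0895), from 1.92 and 0.967 to 0.524 and 0.719 CPM, and 1.18 in MP.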

How the results depend on the processing

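The balance of calls in TN turned from 191 higher and 236 lower to 223 and 189 with scaling by total counts only. The TN estimate of Anxa2, which was not called, ranged from −0.17 to 0.01, and those of Cd8a, Cd8b1, Cd44 and Il2rb, also not called, changed sign too. No called gene that was followed through the alternatives changed sign. With no filter on low counts 783 genes were called in TN (388 higher and 395 lower), 888 in MP and 81 for the difference between TN and MP; 345 were shared in direction by TN and MP, 40 interferon-stimulated genes were higher and 8 heat shock chaperones lower. DESeq2 called 26 genes for the difference between TN and MP, 38 interferon-stimulated genes and 3 cytokine receptors. Limma-voom called 7 for that difference, 3 cytokine receptors, 1 GTPase and 1 macrophage marker. With the TN libraries alone 39 interferon-stimulated genes were higher.

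Same-numbered WT-TN and mCre-TN libraries share only a number (r = 0.0118): with the replicate block 548 genes were called in TN, 425 of them in common with the fit without it, and 8 heat shock chaperones were lower. Fits that left out 1 library each assume that a lone replicate varies like the other groups. They called 204 to 446 genes in TN (87 to 213 higher, 88 to 233 lower), 195 to 593 in MP, 9 to 32 for the difference between TN and MP, and 103 to 180 shared in direction. By list the ranges were 11 to 40 interferon-stimulated genes, 0 to 14 GTPases, 6 to 10 amino acid response genes, 1 to 5 cytokine receptors, 2 to 6 heat shock chaperones, 2 to 5 class I genes and 1 to 6 macrophage markers. The cause of these shifts was not tested. With 2 libraries a group and a smallest library of 13479586 counts, differences of genes with few counts are limited by depth, and calls near the threshold depend on single libraries.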
